A study of Homo sapiens with 16 samples.

Results

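The transcripts followed here belong to the transforming growth factor beta (TGF-beta) pathway and the ID family, in cells whose HER-2 kinase was inhibited. They are the ligands TGFB1 and TGFB2, the type II receptor TGFBR2, the signal transducer SMAD3, the inhibitory SMAD6 and SMAD7, the secreted TGF-beta target TGFBI, and ID1, ID2 and ID3. The 10 genes were chosen by exact match of their symbols among the 18190 gene symbols on the array, and each was measured by 1 probe. MCF10HER2 cells are MCF10A cells, an immortalised nontransformed line of human mammary epithelium, transduced to stably over express HER-2, and all 16 arrays come from this line. Parallel cultures, kept in serum-free medium with EGF and hydrocortisone and without insulin, were given 1 µM of CP724,714, which blocks the HER-2 kinase. RNA was collected every 3 hours from 3 to 45 hours, and a culture at 0 h was the only untreated sample. Each time point had 1 array and no untreated culture of a later time was analysed here, so that the effect of the inhibitor cannot be told apart from that of time in culture or of the medium renewed at the start.

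TGF-beta ligands bring together type I and type II receptor kinases at the cell surface, which phosphorylate SMAD2 and SMAD3. The phosphorylated SMADs join SMAD4, enter the nucleus and alter transcription, while SMAD6 and SMAD7 limit the signal and are themselves induced by it. ID proteins are helix-loop-helix proteins that lack the basic region needed to bind DNA, and by pairing with E proteins such as TCF3 they hold back differentiation genes. ID1, ID2 and ID3 are classical targets of bone morphogenetic proteins (BMPs), the related ligands that signal through SMAD1 and SMAD5. In mammary epithelium TGF-beta is best known as a brake on proliferation.

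The upstream sequences of the ID genes are shown because ID1 and ID3 were both lower at 3 hours than at 0 h while ID2 was not, and that of SMAD6 because of the letters it holds. The windows are the 250 bases before the annotated start in RefSeq (GRCh38.p14), written in the direction of the gene. Capitals mark the letters searched on both strands: GTCTAGAC, the palindromic SMAD-binding element, the shorter SMAD box CAGAC, the GC-rich SMAD box GGCGCC, and the TATA box TATAAA.
ID1, chr20:31605039-31605288, plus strand: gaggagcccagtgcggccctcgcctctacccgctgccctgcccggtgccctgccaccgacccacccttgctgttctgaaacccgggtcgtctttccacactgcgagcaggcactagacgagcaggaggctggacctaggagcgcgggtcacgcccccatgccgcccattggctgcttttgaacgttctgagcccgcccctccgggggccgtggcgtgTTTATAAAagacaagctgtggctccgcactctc
ID2, chr2:8681806-8682055, plus strand: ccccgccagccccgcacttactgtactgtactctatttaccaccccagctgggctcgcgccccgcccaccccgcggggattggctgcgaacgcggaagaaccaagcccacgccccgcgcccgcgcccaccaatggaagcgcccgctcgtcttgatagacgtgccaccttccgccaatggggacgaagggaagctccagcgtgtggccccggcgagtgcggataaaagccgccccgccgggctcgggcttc
ID3, chr1:23559502-23559751, minus strand: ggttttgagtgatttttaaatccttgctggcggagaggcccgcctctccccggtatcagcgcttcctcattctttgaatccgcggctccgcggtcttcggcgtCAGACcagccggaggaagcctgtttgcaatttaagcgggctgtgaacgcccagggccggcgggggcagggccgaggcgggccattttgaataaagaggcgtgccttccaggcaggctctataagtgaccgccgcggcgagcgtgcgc
SMAD6, chr15:66701986-66702235, plus strand: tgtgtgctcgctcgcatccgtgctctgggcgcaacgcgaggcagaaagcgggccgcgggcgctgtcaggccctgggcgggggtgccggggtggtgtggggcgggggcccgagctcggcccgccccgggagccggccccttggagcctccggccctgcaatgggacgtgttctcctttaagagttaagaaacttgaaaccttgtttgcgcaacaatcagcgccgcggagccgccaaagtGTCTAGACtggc
Upstream windows were found for all 10 genes. GTCTAGAC was found in 0.231% of the 27305 genes with such a window and, of the 10, only in SMAD6, where it began 12 bases before the start. CAGAC was found in 42.8% of genes and in TGFB2, SMAD3, SMAD7 and ID3, and GGCGCC in 19.0% of genes and in SMAD3 and TGFBI. TATAAA was found in 13.0% of genes and in TGFB2, SMAD7 and ID1, where it began 31 bases before the start. The ID2 window held none of the 4 motifs. A match is a description of letters and not of a bound site.

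Signals are given as normalized log2 values, so that a difference of 1 is a factor of 2 and levels are compared only within a gene. Per array, 10363 to 11436 of 20589 probes were detected, the array background was higher from 24 to 45 hours (164.3 to 173.5 intensity units) than from 0 to 21 hours (135.7 to 148.7), and the 9 and 18 hour arrays were dimmer than the rest. Successive arrays differed most up to 12 hours, by a root mean square of 0.40 to 0.50 on the log2 scale over tested probes against 0.19 to 0.33 later. Of 11 mammary epithelial markers 8 were above the detection limit on all 16 arrays, among them KRT5, KRT8, KRT18 and EPCAM. CDH1 was above it on 15, TP63 on 14 and KRT14 on only 1. Of 7 fibroblast markers, 6 were above it on none. Of 4 endothelial markers, CDH5 and VWF were above it on none, but PECAM1 was on all 16 and KDR on 15. Among the haematopoietic markers, CD14 and CD68 were above it on all 16, PTPRC on 7 and CD3E on 1. Their part in the results was not tested. The probe used for ERBB2, the gene of HER-2, is 1 of 2 on the array and read only 163 to 265 intensity units, near background. By signal it was above the detection limit on 12 of 16 arrays. Its detection p was under 0.05 on 7, but is of the kind, described below, that does not follow the signal. No MCF10A array was analysed here, so the over expression was not tested.

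Of the 10 genes, 8 had a detection p under 0.05 on at least 3 arrays and were tested, with p-values adjusted over all 12321 such probes. A smooth curve over time fitted the signal better than a constant level in 4 of them, ID2, TGFBI, SMAD6 and TGFB2, against 42.3% of all tested probes, so that the share among the 8 was close to the background. The median fitted range was 0.90 among the 8 and 0.61 among all tested probes. With 1 array a time point, these limma p-values measure the spread of arrays about a smooth curve and not the spread between replicate cultures. With the 4 successive runs of 4 arrays as a block, a fit added after seeing the data, only SMAD6 was still called (limma, adjusted p = 0.0153). A straight line over 45 hours fell in 2, SMAD7 and TGFBI, against 11.3% of all tested probes, and rose in none, against 13.1%.

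ID2 gave the largest change of the 10 genes. Its signal was 9.26 at 0 h, 9.78 at 3 hours and 9.14 at 6 hours, then 7.13 at 9 hours, 6.39 at 12 hours, 6.53 at 15 hours, 6.04 at 18 hours and 6.97 at 21 hours. From 24 hours it was 7.34, 6.82, 6.90, 7.34, 7.40, 7.28, 6.84 and 6.77 at successive time points. The first 3 arrays therefore lay above all 13 later ones, and the loss took place between 6 and 12 hours. The peak at 3 hours was at least 12.6-fold above the lowest array, at 18 hours, where the probe was not above the detection limit. At 45 hours the signal was 5.62-fold lower than at 0 h, and no later array had returned to the range of the first 3.

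The fitted range of ID2 was 3.53 (limma spline fit, adjusted p = 0.000177). Over 0 to 21 hours its slope was -3.60 ± 0.58 per 21 hours (SE, adjusted p = 0.000358), and 14.9% of all probes had a falling slope there. It was the only one of the 8 tested genes with a called slope in these hours, against 30.2% of probes with a slope of either sign. Over 24 to 45 hours the slope was -0.22 ± 0.58 (SE, adjusted p = 0.878), and the difference of these slopes was 3.38 ± 0.83 (SE, adjusted p = 0.00784), as was called in 24.6% of probes. The mean of the 12 to 21 hour arrays less that of the 0 to 9 hour arrays was -2.34 ± 0.39 (SE, n = 4 and 4, limma, adjusted p = 0.000199). Each n counts arrays of different time points, in runs chosen after the data were seen, and not replicate cultures. Without the dim 9 and 18 hour arrays the fitted range was 3.30 (limma, adjusted p = 0.000632). The straight line missed the threshold (-1.82 ± 0.67, SE, limma, adjusted p = 0.0546) and leaving out 1 array at a time moved it both ways. It passed without the 9, 12, 15 or 18 hour array, with adjusted p-values from 0.0238 to 0.0427, and was weakest without the 3 hour array (-1.24, limma, adjusted p = 0.184) and without the 0 h array (-1.39, limma, adjusted p = 0.189). The size of the ID2 changes depends on the background correction, since the fitted range was 2.18 with no correction and 1.41 with control moments from all rows, with the call kept in both.

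ID3 and ID1 were both lower at once. ID3 was 11.07 at 0 h and 9.03, 9.25 and 8.86 at 3, 6 and 9 hours, and then 10.09 at 12 hours and 10.32 at 15 hours. From 18 to 45 hours it stayed between 9.65 and 10.18. The 3, 6 and 9 hour arrays were below the other 13, and the 0 h array was above all 15 treated ones. The 0 h signal was 4.61-fold that at 9 hours and 2.23-fold that at 45 hours. ID1 was 10.29 at 0 h and 9.43 at 3 hours, returned to 10.04 at 6 hours, and had a median of 9.68 over the 16 arrays with the lowest, 9.32, at 30 hours. At 45 hours ID1 was 1.59-fold lower than at 0 h, and all 15 treated arrays were below the untreated one.

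At 3 hours, ID1 and ID3 were at least 1.7-fold lower than at 0 h, as were 5.23% of tested probes, with 1 array on each side and no test. Together with SMAD7 they were the 3 of the 8 tested genes that lay below 0 h on every treated array, against 10.9% of tested probes, and none of the 8 lay above 0 h on every treated array, against 12.8%. All these comparisons turn on the 1 untreated array. Neither gene was called by the curve over all arrays, with adjusted p = 0.395 for ID1 and 0.584 for ID3 (limma). Without the 0 h array, ID3 was called, with a fitted range of 1.10 (limma, adjusted p = 0.0174), and its change over 0 to 21 hours turned from -0.01 to 1.26 (limma, adjusted p = 0.0138). The mean of ID3 over 12 to 21 hours was 0.47 ± 0.32 (SE, n = 4 and 4, limma, adjusted p = 0.276) above that over 0 to 9 hours, and 0.97 (limma, adjusted p = 3.91e-05) without the 0 h array. ID4, the remaining family member, was above the detection limit on 2 arrays and was not tested.

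**Figure D1:**
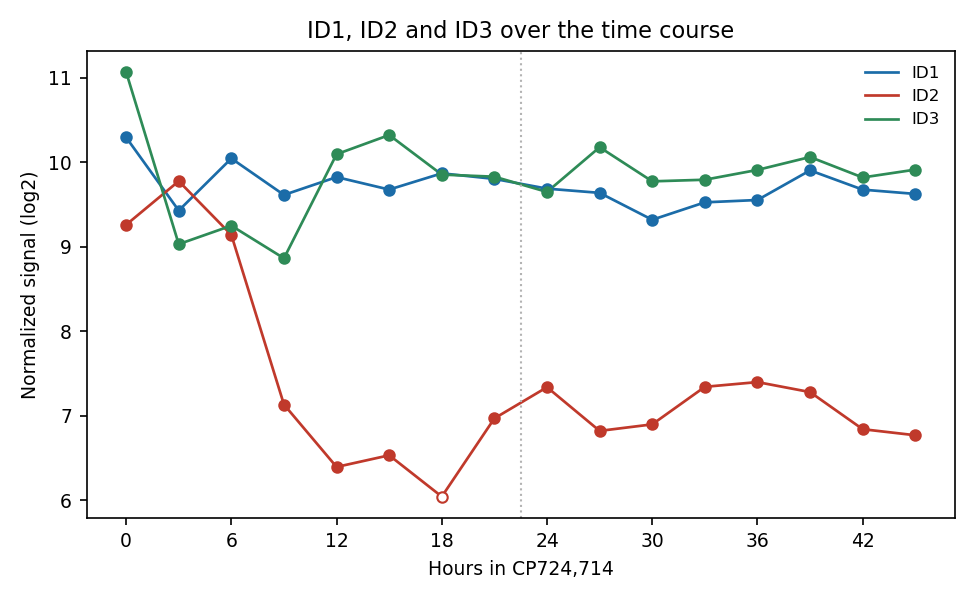
Normalized log2 signal (y axis) of ID1, ID2 and ID3 against hours in CP724,714 (x axis), 1 array a time point. Open points were not above the detection limit and the dotted line separates the 0 to 21 hour from the 24 to 45 hour arrays. ID2 falls from 9.14 at 6 hours to 6.39 at 12 hours, and ID3 is between 8.86 and 9.25 at 3 to 9 hours.

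TGFBI encodes an extracellular matrix protein that was isolated as a transcript induced by TGF-beta. Its signal was high and nearly level for 33 hours, at 14.75, 14.58, 14.60, 14.61, 14.86, 14.70, 14.64 and 14.77 from 0 to 21 hours and 14.77, 14.51, 14.68 and 14.61 from 24 to 33 hours. It was then 13.97 at 36 hours, 13.96 at 39 hours, 14.01 at 42 hours and 13.78 at 45 hours. These 4 arrays lay below all 12 earlier ones. The mean was 14.64 ± 0.11 (SD, n = 4) over 24 to 33 hours and 13.93 ± 0.10 (SD, n = 4) over 36 to 45 hours, a 1.64-fold difference.

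The step at 36 hours was -0.71 ± 0.07 (SE, limma, adjusted p = 7.61e-06) and TGFBI was the only one of the 8 called for it, against 5.97% of probes called lower. Steps of either sign at 36 hours were called for 11.8% of probes, against 0.130% at 24 hours, and the array at 36 hours differed from that at 33 hours by a root mean square of 0.33, the most after 12 hours. The fitted range of TGFBI was 1.01 (limma, adjusted p = 6.5e-05). Its slope was 0.08 ± 0.15 (SE, limma, adjusted p = 0.716) over 0 to 21 hours and -1.02 ± 0.15 (SE, limma, adjusted p = 0.000952) over 24 to 45 hours, where 2.36% of probes fell and 4.77% changed in either direction, and no other of the 8 was called. The slopes differed by -1.10 ± 0.21 (SE, limma, adjusted p = 0.00189). The straight line over 45 hours was -0.82 ± 0.17 (SE, limma, adjusted p = 0.00196), and with the 0 to 21 and 24 to 45 hour arrays as a block it was -1.01 (limma, adjusted p = 0.0989).

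**Figure D2:**
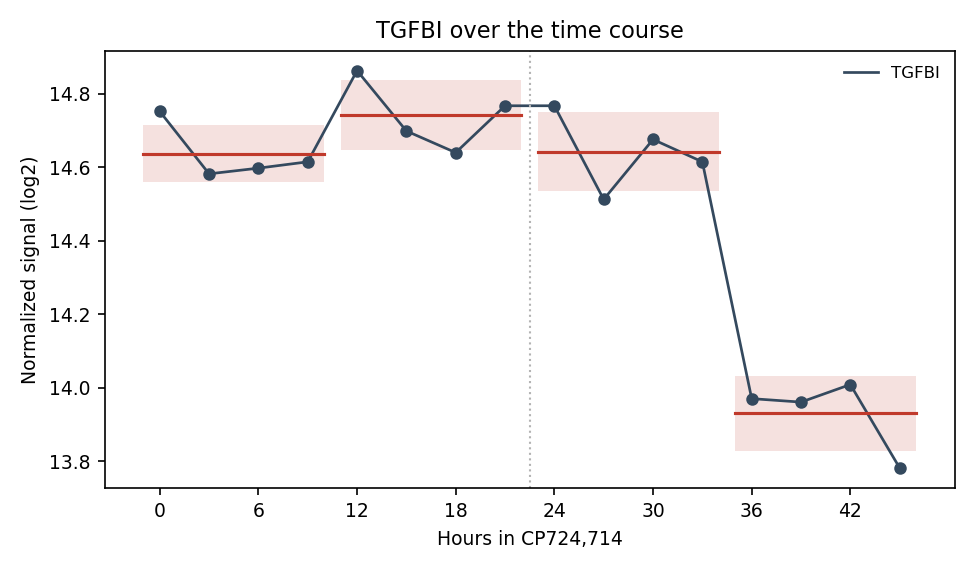
Normalized log2 signal of TGFBI (y axis) against hours in CP724,714 (x axis), 1 array a time point. Red lines and bands give the mean and SD of each run of 4 arrays, and the last 4 arrays have a mean of 13.93 against 14.64 for the 4 before.

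Of the ligands, TGFB1 was not above the detection limit on any array, with intensities from 146 to 218, and was not tested. TGFB2 was close to the limit. It was 6.10 at 0 h, 6.98 at 3 hours and 6.05 at 6 hours, and between 9 and 33 hours it was above the limit only at 24 hours (6.02). It was above the limit again at 36, 39, 42 and 45 hours, with 6.07, 6.20, 6.52 and 6.64. The 3 hour array was the highest, 1.84-fold above 0 h and at least 2.02-fold above the 21 hour array. At 3 hours, 3.71% of probes were at least 1.7-fold higher than at 0 h.

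The fitted range of TGFB2 was 0.98 (limma, adjusted p = 0.0135), but its size depends on the background correction. It was 0.47 with no correction (limma, adjusted p = 0.0127) and 0.12 with control moments from all rows (limma, adjusted p = 0.0180), and the difference of slopes given next was then 0.80 and 0.20, called in both. Its slopes were -0.79 ± 0.29 (SE, limma, adjusted p = 0.0519) over 0 to 21 hours and 0.88 ± 0.29 (SE, limma, adjusted p = 0.0948) over 24 to 45 hours. Neither slope passed the threshold, but their difference did, at 1.66 ± 0.42 (SE, limma, adjusted p = 0.00880). The mean of the 36 to 45 hour arrays was 0.60 ± 0.20 (SE, n = 4 and 4, limma, adjusted p = 0.0618) above that of 24 to 33 hours. These uncalled values moved both ways when 1 array at a time was left out. The early slope was -1.09 without the 0 h array (limma, adjusted p = 0.0231) and -0.39 without the 3 hour array (limma, adjusted p = 0.259), and it also passed without the 9 or 24 hour array. The late slope was 0.90 without the 3 hour array (limma, adjusted p = 0.0201) and 0.74 without the 45 hour array (limma, adjusted p = 0.316). The step was 0.61 without the 3 hour array (limma, adjusted p = 0.00750) and 0.51 without the 45 hour array (limma, adjusted p = 0.178), and it also passed without the 9 hour array.

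TGFBR2 binds the ligand and phosphorylates the type I receptor. Its detection p was under 0.05 on 1 array only and it was not tested, although its intensity, 744 to 2255, was above that of every ordinary undetected probe on all 16 arrays. Its deposited detection p belongs to a kind that does not follow the signal, found in 7.20% of rows. The detection p of ID1, BMP4 and CDKN1A is of this kind too, and by signal each was above the limit on all 16 arrays. The TGFBR2 signal was 10.25, 10.25, 10.20 and 10.08 from 0 to 9 hours, 10.41, 10.73, 10.29 and 10.50 from 12 to 21 hours, and between 10.35 and 10.68 later. When detection was judged by signal, the curve over time was not called (limma, adjusted p = 0.173). The mean over 12 to 21 hours was then 0.29 ± 0.10 (SE, n = 4 and 4, limma, adjusted p = 0.0288) above that over 0 to 9 hours, in a comparison where 35.6% of probes were called in the main filter. This way of judging detection was chosen after the values were seen.

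SMAD3 carries the TGF-beta signal to the nucleus. It was 9.07, 9.30 and 8.97 at 0, 3 and 6 hours, 8.17 at 9 hours, and between 8.21 and 8.81 from 12 to 45 hours. The first 3 arrays lay above the other 13. At 45 hours it was 1.67-fold lower than at 0 h. The curve (fitted range 0.81, limma, adjusted p = 0.0726) and the straight line (-0.60 ± 0.22, SE, limma, adjusted p = 0.0518) both missed the threshold. Without the dim 9 hour array both passed it (limma, adjusted p = 0.0163 for the curve and 0.00852 for the line), and the line also passed it without the 15 or the 42 hour array. Without the 3 hour array the curve had a range of 0.61 (limma, adjusted p = 0.318) and the line was -0.44 (limma, adjusted p = 0.159). With control moments from all rows the range was 0.50 (limma, adjusted p = 0.0331) and the line -0.37 (limma, adjusted p = 0.0329), both smaller but called.

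SMAD7, which competes for the type I receptor and recruits ubiquitin ligases to it, was 7.94 at 0 h and lower on all 15 treated arrays, from 6.96 at 30 hours to 7.65 at 12 hours. It was 1.64-fold lower at 45 hours than at 0 h. The straight line fell by 0.54 ± 0.19 over 45 hours (SE, limma, adjusted p = 0.0415), and the curve was not called (limma, adjusted p = 0.107). The call for the line was lost when any of the 0, 3, 12, 15, 30, 33, 36, 39 or 45 hour arrays was left out, with adjusted p-values up to 0.144, the highest without the 0 h array. The line was -0.29 with no background correction and -0.12 with control moments from all rows, called in both.

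SMAD6, the inhibitory SMAD most tied to BMP signals, was near the limit. It was above the limit at 0 h (6.41), 24 hours (6.28), 27 hours (6.23), 39 hours (6.09), 42 hours (6.48) and 45 hours (6.42), and not above it on the other 10 arrays, where it was between 5.27 and 5.92. From 3 to 21 hours no array was above the limit, and the 42 hour array was at least 1.43-fold above the 21 hour array. The fitted range was 1.23 (limma, adjusted p = 0.00145) and, with the 0 to 21 and 24 to 45 hour arrays as a block, 1.20 (limma, adjusted p = 0.00428). It was 0.67 with no background correction and 0.15 with control moments from all rows, called in both. The straight line was 0.63 ± 0.27 (SE, limma, adjusted p = 0.0955). It was 1.00 (limma, adjusted p = 0.00351) without the 0 h array and -0.47 (limma, adjusted p = 0.618) with the block, and the higher array background from 24 hours coincides with the higher SMAD6 signal. The part of that background in the result was not tested beyond this block.

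**Figure D3:**
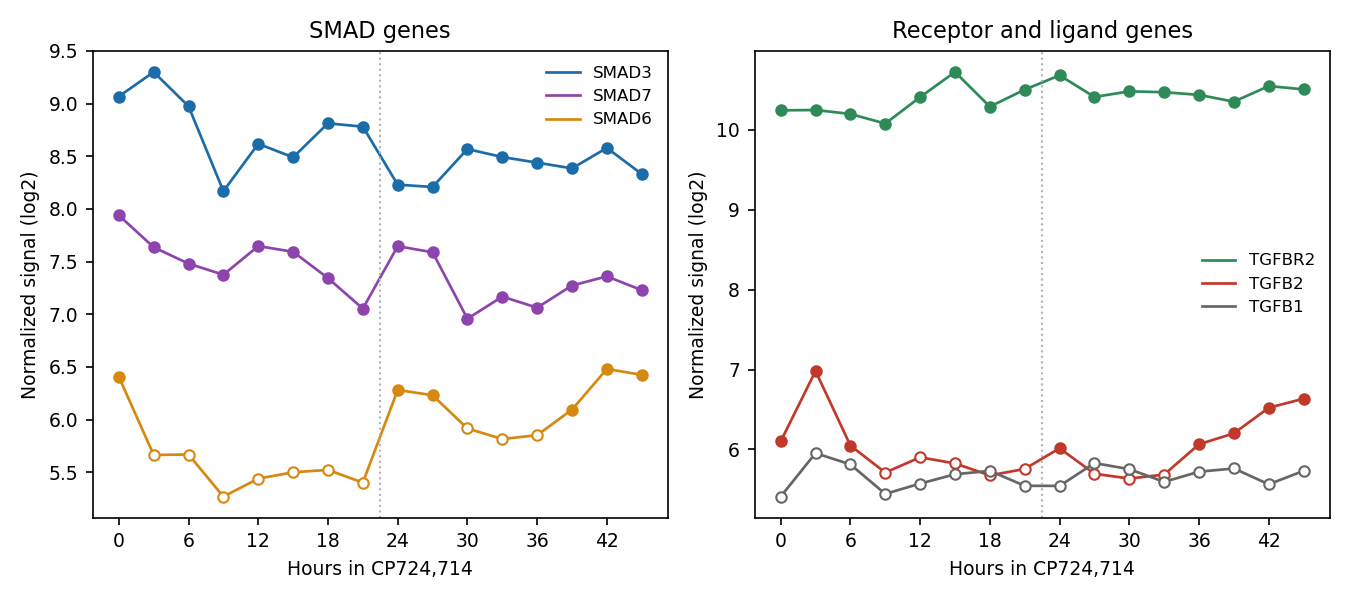
Normalized log2 signal (y axes) of SMAD3, SMAD6 and SMAD7 (left) and of TGFBR2, TGFB2 and TGFB1 (right) against hours in CP724,714 (x axes), 1 array a time point. Open points were not above the detection limit and the dotted line separates the 0 to 21 hour from the 24 to 45 hour arrays. All TGFB1 points are open, and SMAD6 is open from 3 to 21 hours.

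**Figure D4:**
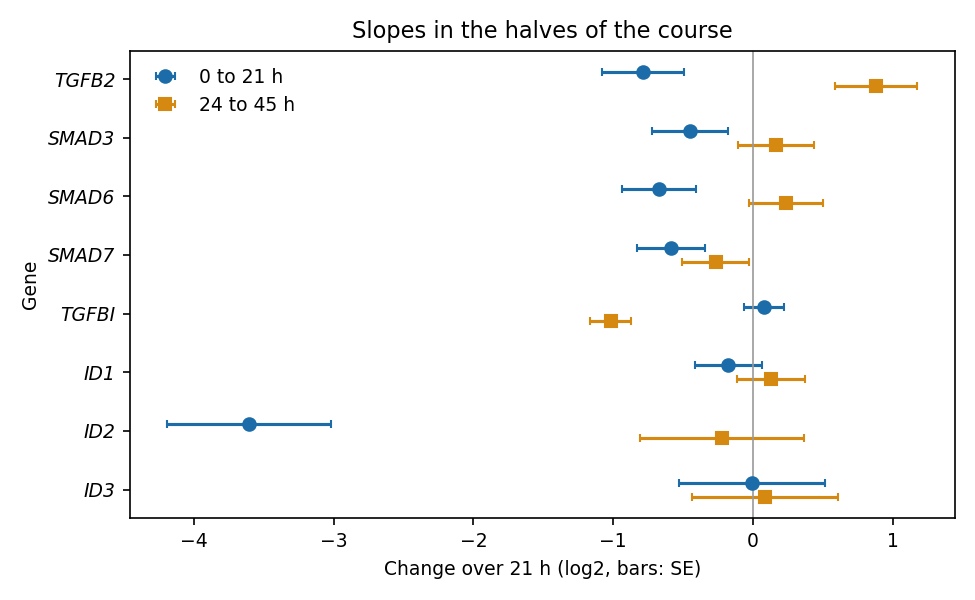
Change in log2 signal over 21 hours (x axis) in the 0 to 21 hour arrays (circles) and the 24 to 45 hour arrays (squares) for the 8 tested genes (y axis), with SE bars from the fit. ID2 stands at -3.60 in the first and TGFBI at -1.02 in the second, and TGFB2 has slopes of opposite sign.

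The likeness of other genes to the members was taken as Pearson's r over the 16 arrays among the 5206 probes called by the curve, as a description across arrays that share time and background. Among the genes most like ID2 were SMG1, a kinase of nonsense-mediated decay (r = 0.94), and TPBG, a membrane glycoprotein (0.94). TGFBI was most like TMEM16A, now ANO1, a chloride channel (0.95), NP, now PNP, a purine phosphorylase (0.95), and CSRP2 (0.94). TGFB2 was most like ARID5B (0.90), KLF5 (0.89) and RNF103 (0.89), which were likewise higher at 3 hours than at 0 h. For SMAD6 the closest were C1orf130 (0.82), SEPN1 (0.81) and RPS4X (0.80).

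Around the 10 genes, a list of 88 other genes of the TGF-beta and BMP pathway was described, all on the array, of which 71 were tested. The curve was called in 40 of the 71 (56.3%), against 42.3% of all tested probes, and the line rose in 8 and fell in 16, against 13.1% and 11.3% of all tested probes. Among 18 tested ligands and ligand-binding proteins 12 were called by the curve (66.7%, against 42.3% of all tested probes). The line rose for LTBP4, a latent TGF-beta binding protein, by 2.20 ± 0.18 (SE, limma, adjusted p = 2.15e-07), to 4.73-fold its 0 h signal at 45 hours. INHBB, an activin subunit, also rose, by 1.20 over 45 hours (limma, adjusted p = 0.00192). The divergent ligand GDF15 was 9.59-fold lower at 45 hours than at 0 h and BMP2 was 4.95-fold lower. The line also fell for the activin antagonist FST and for BMP4. BMP4 was first higher, at 8.49 at 12 hours against 7.73 at 0 h, and was 6.54 at 45 hours. TGFB3 was above the limit on 5 arrays, with the highest signal, 6.77, at 0 h.

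Of 11 tested receptors and co-receptors 5 were called by the curve (45.5%), close to the 42.3% of all tested probes. BAMBI, a pseudoreceptor that lacks the kinase domain and is induced by TGF-beta and BMP signals, was 13.32 at 0 h, 12.43 at 3 hours, 11.62 at 6 hours and 10.80 at 9 hours, and between 10.20 and 10.72 later. It was 7.51-fold lower at 45 hours (line -2.06 ± 0.43, SE, limma, adjusted p = 0.00173). TGFBR3, betaglycan, which presents TGFB2 to the type II receptor, was 2.93-fold higher at 45 hours than at 0 h, with 1 array on each side. Its line over 45 hours rose by 1.95 ± 0.36 (SE, limma, adjusted p = 0.000596). The type I receptor TGFBR1 was above the limit on 6 arrays and was not called (limma, adjusted p = 0.964). Of 16 tested SMADs and modulators 7 were called by the curve (43.8%), likewise close to the 42.3% of all tested probes. SMAD2 was lowest at 12 hours, at 6.23 against 7.59 at 0 h, with 1 array on each side. Its curve over all 16 arrays was called (limma, adjusted p = 0.00580). The curves of SMAD4 (adjusted p = 0.219), SMAD1 (0.229) and SMAD5 (0.838) were not called by limma. The corepressor TGIF2 and the ubiquitin ligase NEDD4L were called by the curve and not by the line.

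Among 21 tested known targets of TGF-beta 14 were called by the curve (42.3% of all tested probes), and the line fell in 7 (11.3% of all) and rose in 1 (13.1% of all). CDKN1A, the cyclin-dependent kinase inhibitor p21, SNAI2, the transcription factor Slug, and PTHLH, a secreted hormone-related protein, fell (limma, adjusted p = 0.00027, 6.56e-05 and 0.00314). The matricellular genes CCN1 and CCN2 were lowest in the fit at 18 and 21 hours and highest at 45 hours. TGM2 was highest in the fit at 21 hours and lowest at 45 hours. Its slope over 24 to 45 hours was -1.99 (limma, adjusted p = 0.00114). Of the ID family and its helix-loop-helix partners 2 of 5 tested genes were called (40%, against 42.3% of all tested probes). They were the repressors HEY1 (limma, adjusted p = 0.000756) and HES1 (limma, adjusted p = 0.00597). The E proteins TCF3, TCF4 and TCF12, with which ID proteins pair, were not called (limma, adjusted p = 0.441, 0.455 and 0.768).

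**Figure D5:**
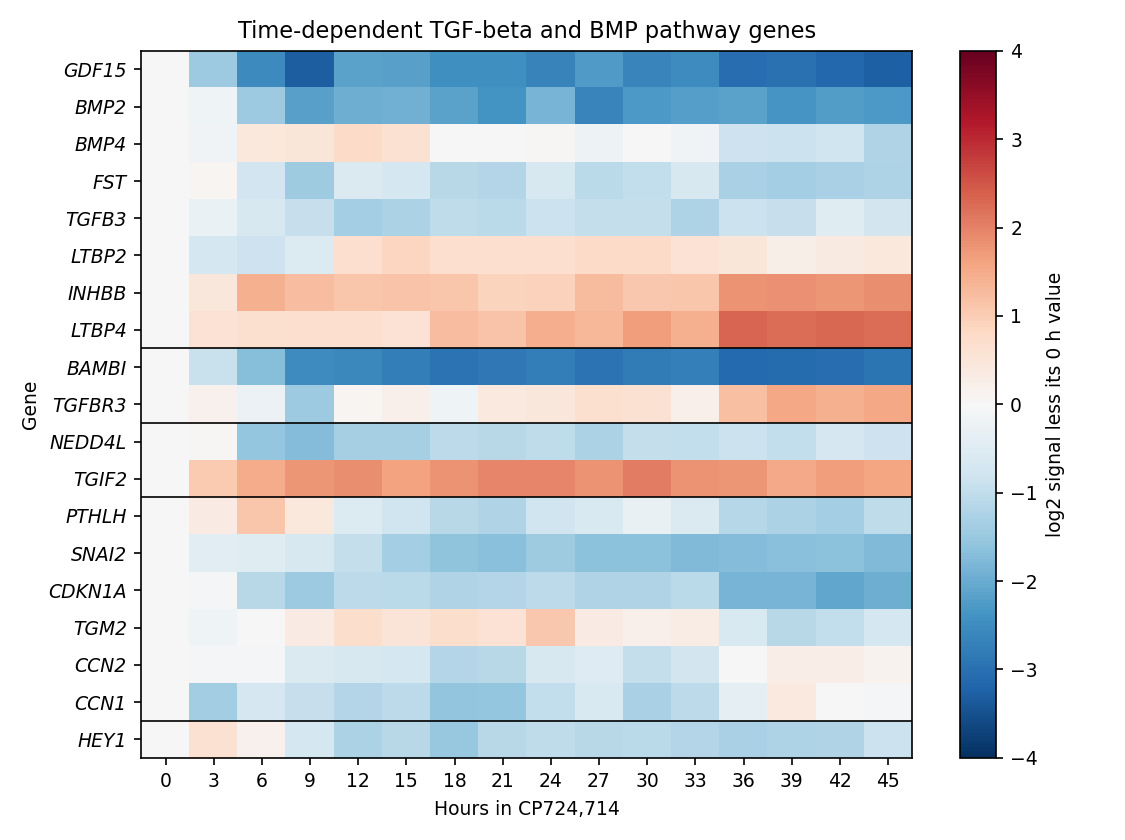
Log2 signal less its 0 h value (colour) for 19 of the other pathway genes called by the curve with a fitted range of at least 1 (y axis), over hours in CP724,714 (x axis), grouped by role with lines between groups (from the top, ligands and ligand-binding proteins, receptors, SMADs and modulators, targets, helix-loop-helix partners). The values run from -3.29 to 2.33, and the line over 45 hours fell in 9 of the 19 and rose in 3.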

How the data were processed

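RNA from 16 cultures was amplified to biotin-labelled cRNA and hybridised to Illumina human Ref8v2 beadchips. The deposited table holds, per the file headers, a non-normalized intensity and a detection p-value for each of 20589 probes on each array. The authors quantile normalized the arrays they compared and kept genes of these cells with at least a 1.7-fold change at any time point for their comparison with MCF10A cells, which is not analysed here. The deposited detection p-values are whole numbers of 708ths (tolerance 0.01 of a 708th) in 19107 rows and not in 1482, and the 75 rows with a mean intensity above 1000 that were not detected on all arrays are all of the second kind, whose origin is not stated. The mean and SD of the negative controls were therefore inferred from the 19107 rows, in place of all rows as first planned (limma 3.58.1 in R 4.3.3), followed by normexp background correction with an offset of 16, quantile normalization and log2. Probes with a detection p under 0.05 on at least 3 arrays were tested, 12321 in all.

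Limma fits with empirical Bayes gave the curve (natural cubic spline, 4 degrees of freedom), the straight line over 45 hours, slopes over 0 to 21 and 24 to 45 hours, and means of runs of 4 arrays, with Benjamini-Hochberg adjustment over all tested probes and a threshold of 0.05. The runs of 4 arrays were compared after the data were seen, and their p-values measure the spread within runs of different time points. The curve and the line were tried on simulated straight-line changes in independent noise. The slopes over 0 to 21 and 24 to 45 hours and the steps between runs were not checked in this way. A probe above the detection limit has a detection p under 0.05 or, for the 1482 rows, a signal above the brightest undetected ordinary probe, and folds against an array below the limit were taken against that limit. Symbols are those of the array design, except where a newer symbol is used. Among these, CCN1 stands on the array as CYR61, CCN2 as CTGF and EPCAM as TACSTD1. The named pathway genes are those called by the curve with a fitted range of at least 1, at most 20, and others in the roles of the members, and for the 4 members with the largest fitted range the 3 most like genes; some genes that the rules and lists name are not reported here. The members and lists were chosen with earlier results of these data known. Alternatives covered background correction, scaling, detection, array weights, the spline, blocks of arrays and arrays left out. No depth applies to arrays, and the 1 array a time point limits the precision.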

Additional observations from a re-analysis of the deposited data

Results flagged for a closer look

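The slope over 24 to 45 hours differed from that over 0 to 21 hours, by a test of the difference in limma, for ID2 (3.38, on the log2 scale per 21 hours), TGFB2 (1.66) and TGFBI (-1.10). The difference was called in 24.6% of all tested probes. ID2 fell in the first stretch and was level in the second, TGFBI was level in the first and fell in the second, and the individual slopes of TGFB2 missed the threshold.

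TGFBR2 lay outside the tested probes by its detection p, yet was above the brightest ordinary undetected probe on 16 of 16 arrays.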

How the results depend on the processing

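No paired analysis was possible because no time point has more than 1 array. The fits with another probe of a gene were not run, since each of the 10 genes has 1 probe. Of 223 values of called changes under the alternatives, 207 kept direction and call, 16 kept the direction and lost the call, and 0 reversed. Of 327 values of uncalled changes under the alternatives, 37 passed the threshold, 1 of them with the other sign. Of the 8 tested genes, 4 were called by the curve, and 1 when only probes detected on all 16 arrays were tested (5 of the 8 genes) or with runs of 4 arrays as a block, which takes up the differences between runs. The 2 genes called by the line became 1 with median scaling or no detection filter, 4 with no background correction, normexp from the signals with offset 50, without the 9 and 18 hour arrays or with control moments from all rows, and 0 with either block of arrays. Median scaling moved the median line of all probes from 0.01 to 0.10 and the split of called lines from 1613 higher and 1387 lower to 1846 and 784. Slopes over 0 to 21 hours were called in 2 genes with median scaling, array weights or control moments from all rows, 3 with no background correction or normexp with offset 50, and 0 (main 1) among probes detected on all 16 arrays, where the difference of slopes was called in 1 (main 3). Slopes over 24 to 45 hours were called in 2 with array weights, and steps at 36 hours in 2 with median scaling, normexp with offset 50 or without the 9 and 18 hour arrays (main 1 each). The other pathway genes called by the curve fell from 40 to 15 with runs of 4 arrays as a block. Leaving out 1 array at a time gave 4 to 5 genes by the curve, 1 to 4 by the line, 3 to 3 by the difference of slopes, 1 to 3 by the early slope, 1 to 2 by the late slope, 1 to 2 by the step at 36 hours and 33 to 41 other pathway genes.

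Sign changes were seen only in changes that were not called in the main fit. With runs of 4 arrays as a block the lines were -0.64 for TGFB2, -1.17 for SMAD6 and -2.95 for ID3, and with the 0 to 21 and 24 to 45 hour arrays as a block the SMAD6 line was -0.47. The ID3 line was -0.056 without the 9 and 18 hour arrays, and its change over 0 to 21 hours was 0.17 with median scaling and 0.78 with array weights. Leaving out 1 array at a time, the line ranged from -0.13 to 0.47 for TGFB2 and from -0.10 to 0.72 for ID3. The ID3 change over 0 to 21 hours ranged from -0.45 to 1.26. The value of 1.26, without the 0 h array, was called (limma, adjusted p = 0.0138). The cause of these differences was not tested. TGFB1, TGFB2 and SMAD6 lie near the background, where the size of a change depends on the background correction. With control moments from all rows, as first planned, the fitted ranges were 1.41 for ID2, 0.15 for SMAD6, 0.12 for TGFB2 and 1.02 for TGFBI, all called. The block of runs, detection by signal, the steps and control moments from all rows were chosen after seeing the data.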
